A study of Mus musculus with 12 samples.

Results

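The genes described here are 10 mouse counterparts of genes in a human leukemia stem-cell score: *Dnmt3b*, *Nynrin*, *Laptm4b*, *Dpysl3*, *Cdk6*, *Socs2*, *Emp1*, *Zbtb46*, *Cpxm1*, and *Smim24*. They were taken by symbol from the 55291 genes of the raw count table, by a rule that uses no measured value, and all 10 passed the expression filter that left 15825 genes for testing. RNA-Seq was performed on LK cells, the lineage-negative bone marrow cells that bear the receptor cKit, isolated here with beads. The cells came from 12 C57BL/6 mice at 12 months of age, with 3 mice and 3 libraries per genotype. The WT mice carried neither alteration. Kdm6bΔ/+ mice had lost 1 allele of *Kdm6b*, which encodes a demethylase of histone H3 lysine 27, through Mx1Cre, a Cre recombinase driven by the interferon-inducible *Mx1* promoter and switched on here with pI:pC, an RNA mimic that induces interferon. Asxl1Y588XTg mice expressed a truncated form of the chromatin regulator ASXL1 and were at a preleukemic stage, and Asxl1Y588XTg Kdm6bΔ/+ mice, labelled as the double mutation, carried both alterations. Mx1Cre acts in blood cells and in other interferon-responsive tissues. Whether the WT and Asxl1Y588XTg mice of this experiment carried Mx1Cre or received pI:pC, and which promoter drives the transgene, is not given in the sources used here.

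Leukemia stem cells are the self-renewing cells that maintain acute myeloid leukemia. In the human score, the levels of genes that differ between cell fractions with and without leukemia-initiating capacity are summed with weights, and a high score is associated with poor outcome. Among the 10 genes, *Dnmt3b*, *Nynrin*, *Laptm4b*, *Dpysl3*, *Socs2*, and *Emp1* carry a positive weight in humans, and *Cdk6*, *Zbtb46*, *Cpxm1*, and *Smim24* carry a negative weight. The weights were derived in human leukemia, so only their signs were used here, to group the genes. No score was computed for these mice.

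Reads on genes ranged from 14451522 to 23482563 per library (median 17125384.5). The targeted gene *Kdm6b* had normalized counts of 2142, 2372, and 1869 in WT, 1622, 1529, and 1346 in Kdm6bΔ/+, 2270.4, 2303, and 2187 in Asxl1Y588XTg, and 1649, 1873, and 1909 in Asxl1Y588XTg Kdm6bΔ/+ mice. Each mouse with the deletion lay below each mouse of the matching genotype without it. The 6 LK markers *Kit*, *Cd34*, *Myb*, *Gata2*, *Spi1*, and *Runx1* summed to between 1405 and 1599 CPM (counts scaled to a common library total) in the 12 libraries. The double mutant, at 1405 to 1468 CPM, lay below all WT and all Asxl1Y588XTg mice in this sum. The 8 neutrophil markers, among them *S100a8* and *S100a9*, summed to between 49137 and 75639 CPM, with ranges that overlapped except between Kdm6bΔ/+ and Asxl1Y588XTg mice, although mature cells should be depleted from this fraction. Transcripts from the Y chromosome were present in 0 of 3 WT, 2 of 3 Kdm6bΔ/+, 1 of 3 Asxl1Y588XTg, and 3 of 3 Asxl1Y588XTg Kdm6bΔ/+ libraries, so within the 6 libraries of the double mutant and WT this difference and the genotype cannot be told apart. A term for it was therefore fitted over all 4 genotypes together.

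The 10 genes covered a wide range of levels. Scaled to exon length, as RPKM, reads per kilobase of exon scaled to library size, the highest level in WT was that of *Cdk6*, the kinase that drives entry into the cell cycle together with D-type cyclins, with a mean of 60.7 ± 4.43 (SD, n = 3 mice). It was followed by *Smim24*, a small membrane protein, at 7.94 ± 1.43 RPKM, the de novo DNA methyltransferase gene *Dnmt3b* at 5.34 ± 0.436 RPKM, the lysosomal membrane protein gene *Laptm4b* at 3.94 ± 0.368 RPKM, and *Nynrin*, whose product is named for its NYN nuclease-like and retroviral integrase-like domains, at 2.65 ± 0.238 RPKM. Between *Smim24* and *Nynrin*, each neighbor in this order had a range over the WT mice that did not overlap the next. *Zbtb46*, a zinc finger transcription factor of classical dendritic cells, had 1.81 ± 0.456 RPKM and also lay below *Nynrin* in every WT mouse. *Emp1*, a tetraspan membrane protein, had 0.753 ± 0.240 RPKM, and *Cpxm1*, a carboxypeptidase-like secreted protein, had 0.389 ± 0.239 RPKM, with ranges that overlapped. *Socs2*, an inhibitor of cytokine receptor signaling, had 0.174 ± 0.0345 RPKM, and *Dpysl3*, a cytoskeletal protein best known from neurons, had 0.0411 ± 0.0467 RPKM with no read in 1 of the 3 WT mice. The same order of means was found in Kdm6bΔ/+ mice. In Asxl1Y588XTg mice *Laptm4b* stood at 5.26 ± 0.433 RPKM and *Dnmt3b* at 5.08 ± 0.786 RPKM, with overlapping ranges. *Cpxm1*, at 1.25 ± 0.384 RPKM, there had a higher mean than *Emp1*, at 0.665 ± 0.330 RPKM, also with overlap. In the double mutant *Laptm4b*, at 5.09 ± 0.279 RPKM, lay above *Dnmt3b*, at 4.27 ± 0.254 RPKM, in every mouse, and *Dpysl3*, at 0.142 ± 0.138 RPKM, had a higher mean than *Socs2*, at 0.0949 ± 0.0172 RPKM, with overlapping ranges.

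**Figure D1:**
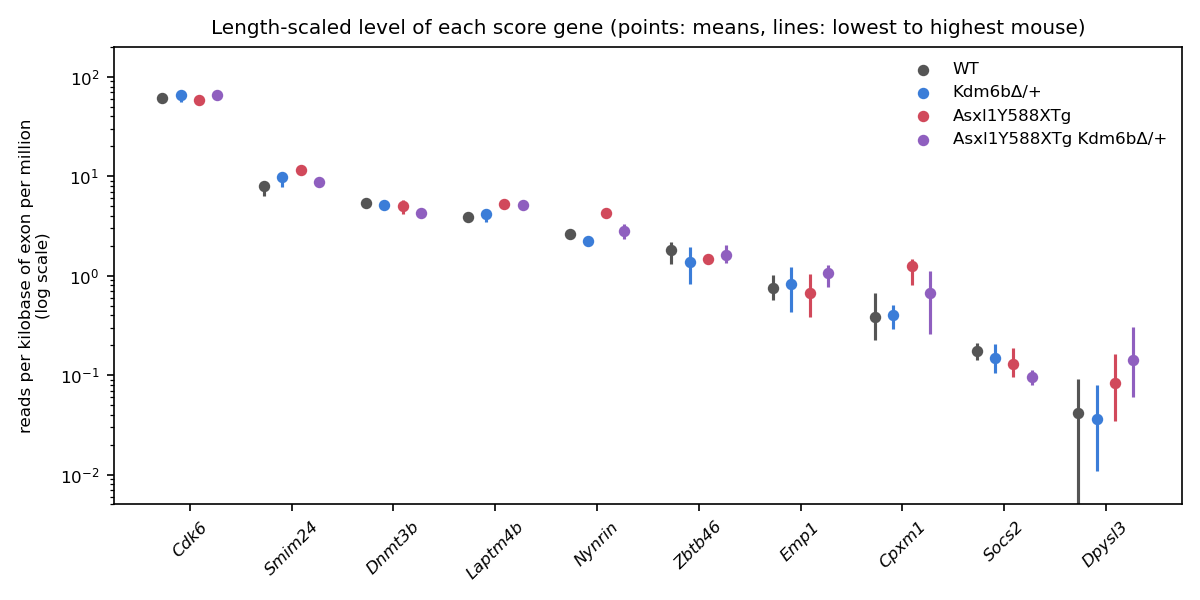
Level of each of the 10 genes on a log axis, in RPKM, with 1 point per genotype for the mean of 3 mice and a line from the lowest to the highest mouse. *Cdk6* stands above all others at 60.7 in WT and *Dpysl3* is lowest at 0.0411, where the line for WT runs off the axis because 1 mouse had no read.

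Of the 10 genes, 4 had fewer than 50 raw reads in at least 1 library. *Dpysl3* had between 0 and 34 raw reads per library, *Cpxm1* between 9 and 63, *Socs2* between 14 and 35, and *Emp1* between 40 and 164. Their intervals, given with each gene, were wide, and how much of this width comes from counting error and how much from the spread between mice was not tested. For *Emp1* the coefficient of variation between mice of a genotype was between 25.0% and 49.6%. The other 6 genes had at least 100 normalized counts in every library. *Cdk6*, *Dnmt3b*, *Nynrin*, and *Laptm4b* overlap a transcript annotated on the opposite strand, and *Zbtb46* a small nuclear RNA on its own strand. As the strand setting of the counting is not given, reads from these neighbors could be included.

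The comparison of Asxl1Y588XTg with WT addressed what truncated ASXL1 does to these genes. *Nynrin* was upregulated and was the only 1 of the 10 genes called, where called means that the adjusted p is below 0.05 and the groups differ by more than 1.5-fold. Among all genes tested 1.58% were called higher and 0.0316% lower. *Laptm4b*, *Cpxm1*, and *Smim24* were also higher in each Asxl1Y588XTg mouse than in each WT mouse but did not pass the threshold. Such a separation toward higher values was found for these 4 of 10 genes and for 10.5% of all genes tested, and an unadjusted p-value under 0.05 toward higher values for the same 4 genes and for 7.3% of all genes. Toward lower values it was 0 of 10 genes by either measure, beside 5.21% of all genes for the separation and 2.05% for the p-value. Over the 10 genes the log2 fold changes had a median of 0.18, with 5 above and 5 below 0, beside −0.01 for all genes tested.

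*Nynrin* lies on chromosome 14 of mm10 (chr14:55854010-55874736, plus strand). Its normalized counts were 379, 317, and 357 in WT mice and 583, 592, and 529.7 in Asxl1Y588XTg mice. The lowest Asxl1Y588XTg mouse was well above the highest WT mouse, and the means were 351 ± 31.5 and 568 ± 33.7 (SD, n = 3 mice each). The log2 fold change was 0.69 (standard error, SE, 0.12, 95% interval 0.43 to 0.95), with an adjusted p = 0.0173 by edgeR's quasi-likelihood F test, Benjamini-Hochberg adjusted. The call depended on single libraries: without WT mouse 3, or without any 1 of the 3 Asxl1Y588XTg mice, the log2 fold change stayed between 0.67 and 0.74, but its adjusted p in edgeR's quasi-likelihood F test (Benjamini-Hochberg) was between 0.0510 and 0.101.

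*Cpxm1* (chr2:130390775-130397574, minus strand of mm10) showed the largest estimate of the 10 genes. Its normalized counts were 11.9, 28.4, and 9.63 in WT and 63.4, 62.4, and 34.4 in Asxl1Y588XTg mice. The groups did not overlap, but WT mouse 2 and Asxl1Y588XTg mouse 3 came close to each other. The log2 fold change was 1.68 (SE 0.50, 95% interval 0.57 to 2.78), with an adjusted p = 0.187 by edgeR's quasi-likelihood F test, Benjamini-Hochberg adjusted. When no expression filter was applied, the same test gave *Cpxm1* an adjusted p = 0.0303 (edgeR, Benjamini-Hochberg), which made it a second called gene. The weight of *Cpxm1* in the human score is negative.

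*Smim24* (chr10:81393051-81395392, plus strand of mm10), also of negative weight, had normalized counts of 117, 165, and 162 in WT and 213, 208, and 219.8 in Asxl1Y588XTg mice. The 3 Asxl1Y588XTg mice lay close together above all WT mice. The log2 fold change was 0.53 (SE 0.19, 95% interval 0.11 to 0.95), with an adjusted p = 0.335 by edgeR's quasi-likelihood F test, Benjamini-Hochberg adjusted. *Laptm4b* (chr15:34238028-34284302, plus strand of mm10) had normalized counts of 124, 149, and 130.5 in WT and 196, 168, and 174 in Asxl1Y588XTg mice. Its groups did not overlap either, and the log2 fold change was 0.41 (SE 0.18, 95% interval 0.01 to 0.82), with an adjusted p = 0.524 in that edgeR test, Benjamini-Hochberg adjusted.

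Genes of both weights were among these 4. Of the 6 genes of positive weight 1 was called and 2 had an unadjusted p-value under 0.05, and of the 4 genes of negative weight 0 were called and 2 had an unadjusted p-value under 0.05, all toward higher values in edgeR's quasi-likelihood F test. Among all genes tested 1.58% were called higher and 7.3% had such a p-value toward higher values. With 6 and 4 genes these counts do not show a difference between the weights.

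The remaining 6 genes had intervals that included 0. *Dnmt3b* (chr2:153649450-153687730) had normalized counts of 519.7, 441, and 479 in WT and 378, 476, and 516 in Asxl1Y588XTg mice, and a log2 fold change of −0.08 (95% interval −0.39 to 0.24). *Cdk6* (chr5:3341485-3531008) had 15968, 15107, and 13801 in WT and 12819, 15816, and 14878 in Asxl1Y588XTg mice. Its log2 fold change of −0.05 had the narrowest interval of the 10 genes, from −0.26 to 0.17, which leaves out a change of 1.5-fold in either direction. *Zbtb46* (chr2:181387762-181459426) had a log2 fold change of −0.30 (95% interval −0.74 to 0.15). For *Socs2* (chr10:95385362-95417180) it was −0.44 (−1.44 to 0.56), for *Emp1* (chr6:135362545-135383173) −0.18 (−1.05 to 0.69), and for *Dpysl3* (chr18:43320984-43438286) 1.01 (−1.37 to 3.38). With 3 mice per genotype, changes within these intervals are not excluded.

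**Figure D2:**
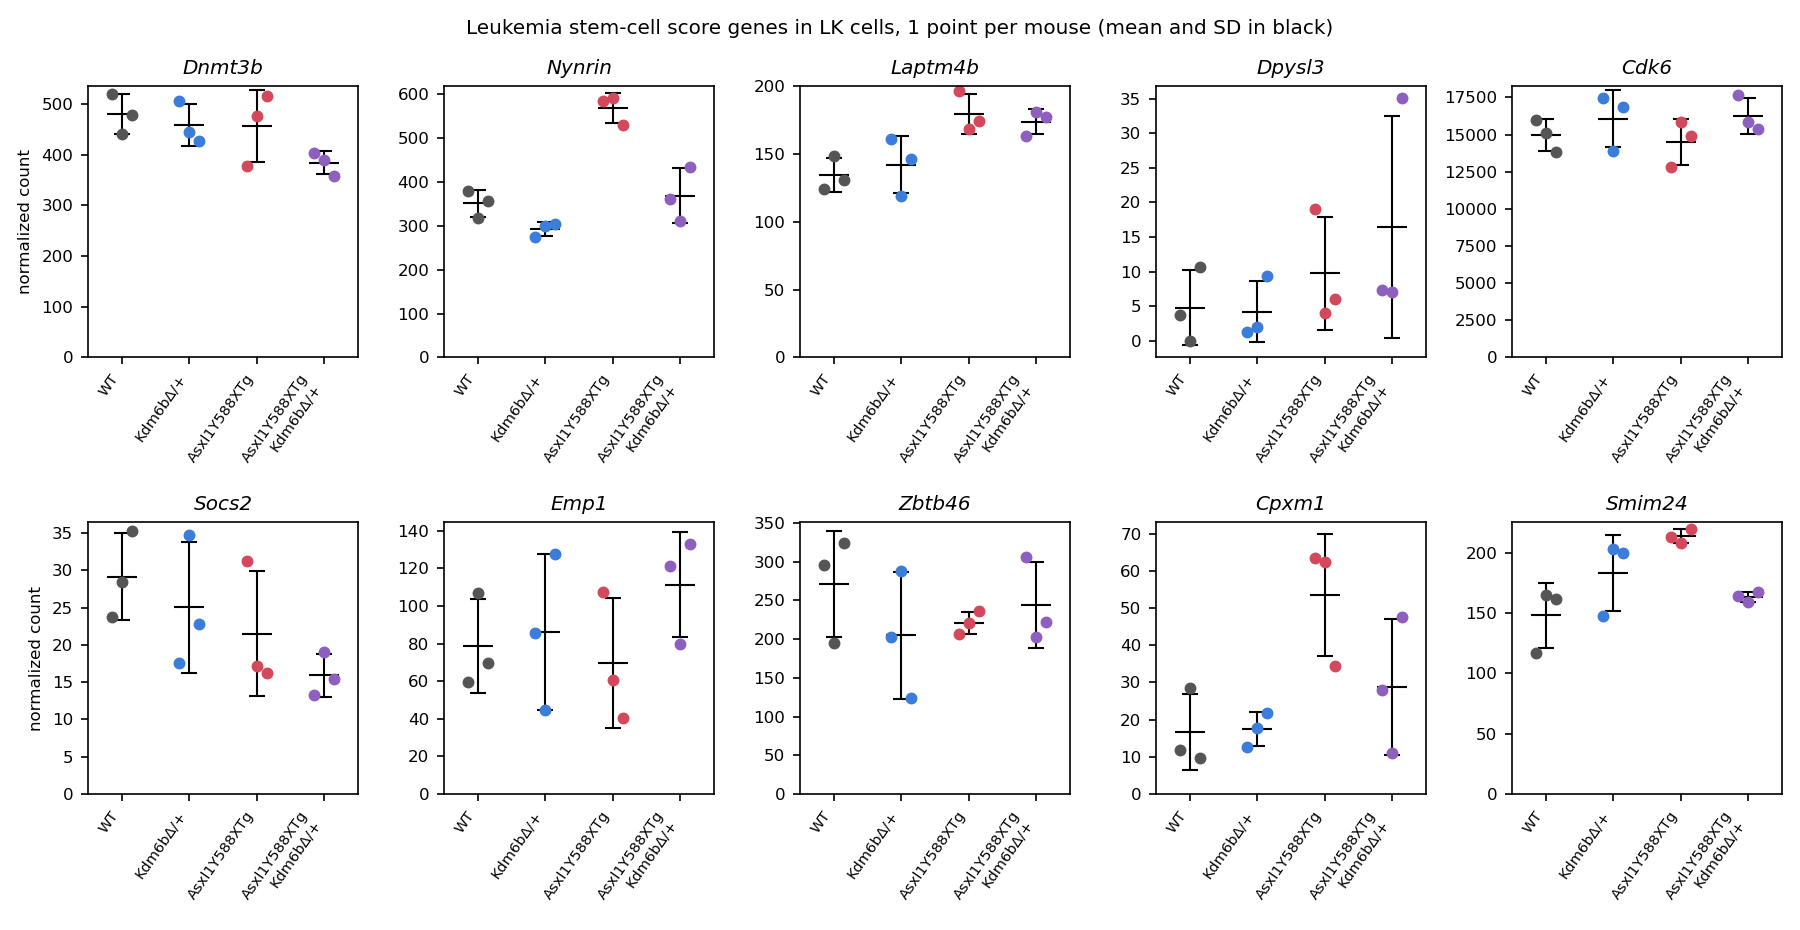
Normalized counts of the 10 genes in LK cells, with 1 point per mouse, 3 mice per genotype, and the mean and SD in black. *Nynrin* was between 529.7 and 592 in Asxl1Y588XTg mice and between 274 and 434 in all other mice, whereas the genotypes overlap for *Cdk6*, *Zbtb46*, *Emp1*, and *Dpysl3*.

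The promoters of *Nynrin*, *Cpxm1*, and *Smim24* are shown because these genes have the 3 largest estimates with non-overlapping groups in Asxl1Y588XTg against WT. The windows run from 250 bases before to 50 bases after a RefSeq start site on GRCm38.p6, which is the mm10 assembly, and are printed 5′ to 3′ on the strand of the gene, with CG dinucleotides in capitals. RefSeq windows were at hand for 7 of the 10 genes, not for *Laptm4b*, *Dpysl3*, and *Socs2*. The window of *Nynrin* is chr14:55853865-55854164, that of *Cpxm1* is chr2:130397580-130397879, and that of *Smim24* is chr10:81392814-81393113.
Nynrin: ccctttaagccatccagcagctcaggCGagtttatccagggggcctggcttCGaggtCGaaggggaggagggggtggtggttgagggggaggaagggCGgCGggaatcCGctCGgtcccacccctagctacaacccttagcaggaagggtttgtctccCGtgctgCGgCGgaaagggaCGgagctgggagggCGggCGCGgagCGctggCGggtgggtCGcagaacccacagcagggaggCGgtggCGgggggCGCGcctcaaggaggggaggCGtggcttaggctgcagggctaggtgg
Cpxm1: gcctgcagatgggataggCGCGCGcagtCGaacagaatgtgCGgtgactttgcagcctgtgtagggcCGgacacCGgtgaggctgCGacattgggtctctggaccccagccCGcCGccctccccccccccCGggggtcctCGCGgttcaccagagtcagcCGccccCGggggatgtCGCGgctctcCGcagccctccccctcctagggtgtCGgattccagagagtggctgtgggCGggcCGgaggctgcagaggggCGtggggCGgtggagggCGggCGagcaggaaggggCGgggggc
Smim24: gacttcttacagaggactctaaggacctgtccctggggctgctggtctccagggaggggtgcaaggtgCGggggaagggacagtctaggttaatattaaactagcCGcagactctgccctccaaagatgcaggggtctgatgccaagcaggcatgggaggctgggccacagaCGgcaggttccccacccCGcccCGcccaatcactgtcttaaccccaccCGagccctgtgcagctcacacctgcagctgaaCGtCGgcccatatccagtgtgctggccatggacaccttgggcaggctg
The *Nynrin* window held 22 CG dinucleotides at a GC content of 69.0%, the *Cpxm1* window 26 at 72.7%, and the *Smim24* window 8 at 61.3%. Over 32851 mouse promoter windows of the same length the median was 7 CG dinucleotides and 52.7% GC. Each of the 3 windows held GGGCGG, the GC box read by Sp and KLF factors, which contains a CG dinucleotide, on either strand, with 2 matches for *Nynrin*, 6 for *Cpxm1*, and 2 for *Smim24*. This motif is in 35.7% of all windows. The E-box CAGGTG was found in the *Smim24* window and in 20.2% of all windows. The letters AGATAA of a GATA motif, CCGGAAG of an ETS motif, and TGTGGT of a RUNX motif, searched on both strands, were in none of the 3 windows and in 11.2%, 8.86%, and 16.8% of all windows.

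The comparison of Asxl1Y588XTg Kdm6bΔ/+ with Asxl1Y588XTg addressed whether the loss of 1 *Kdm6b* allele changes these genes in the presence of truncated ASXL1. It shares the Asxl1Y588XTg libraries with the comparison above, so a high value in these 3 mice raises the first difference and lowers the second. *Nynrin* was downregulated and was again the only gene of the 10 called. Of all genes tested, 1.59% were called lower and 0.145% higher. A complete separation toward lower values was found for 2 of 10 genes, *Nynrin* and *Smim24*, and for 14.1% of all genes tested. The same 2 genes were those with an unadjusted p-value under 0.05 toward lower values, as were 9.81% of all genes. Over the 10 genes the log2 fold changes had a median of −0.13, with 4 above and 6 below 0.

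In Asxl1Y588XTg Kdm6bΔ/+ mice the normalized counts of *Nynrin* were 361, 311, and 434, all below the lowest Asxl1Y588XTg mouse at 529.7 and on both sides of the WT range. The mean was 369 ± 62.0 (SD, n = 3 mice). The log2 fold change against Asxl1Y588XTg was −0.61 (SE 0.12, 95% interval −0.88 to −0.33), with an adjusted p = 0.0363 by edgeR's quasi-likelihood F test, Benjamini-Hochberg adjusted. Among the fits with 1 library left out, only that without Asxl1Y588XTg Kdm6bΔ/+ mouse 3 kept this call, with a log2 fold change of −0.74. Leaving out any other library gave an adjusted p between 0.0597 and 0.139 (edgeR's quasi-likelihood F test, Benjamini-Hochberg adjusted), and a term for Y-linked transcripts, fitted over all 4 genotypes, gave a log2 fold change of −0.64 with an adjusted p = 0.125 from the same edgeR test.

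*Smim24* had normalized counts of 164, 159, and 167 in Asxl1Y588XTg Kdm6bΔ/+ mice, close to the 2 higher WT mice and below all Asxl1Y588XTg mice. Its log2 fold change was −0.37 (SE 0.12, 95% interval −0.64 to −0.10), with an adjusted p = 0.169 by edgeR's quasi-likelihood F test, Benjamini-Hochberg adjusted. *Cpxm1* had 28.0, 11, and 47.5, a spread that overlapped Asxl1Y588XTg, and a log2 fold change of −0.87 (95% interval −1.94 to 0.20). *Laptm4b* had 163, 181, and 177 and differed little from Asxl1Y588XTg, with a log2 fold change of −0.03 (95% interval −0.33 to 0.27). For *Dnmt3b* the counts were 404, 390.0, and 359 and the log2 fold change was −0.23 (95% interval −0.50 to 0.03). *Cdk6* had 17639, 15817, and 15348 and a log2 fold change of 0.18 (95% interval −0.02 to 0.38). The log2 fold change was 0.16 (−0.19 to 0.51) for *Zbtb46*, 0.70 (−0.11 to 1.5) for *Emp1*, −0.42 (−1.26 to 0.41) for *Socs2*, and 0.74 (−1.15 to 2.63) for *Dpysl3*.

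**Figure D3:**
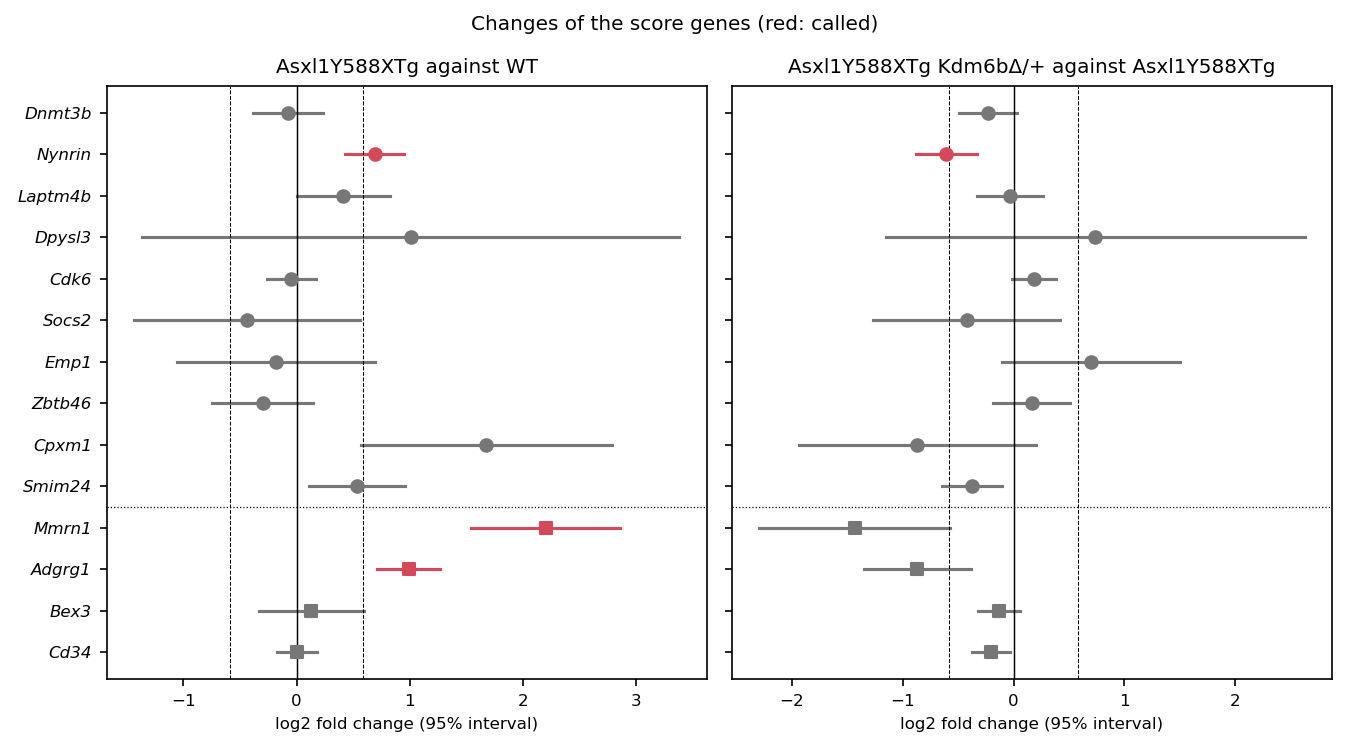
Log2 fold changes of the 10 genes (circles) and of 4 further genes of the human score (squares, below the dotted line) in Asxl1Y588XTg against WT and in Asxl1Y588XTg Kdm6bΔ/+ against Asxl1Y588XTg. Lines are 95% intervals, dashed lines mark a fold change of 1.5, and red marks genes called: *Nynrin* at 0.69 and −0.61, and *Mmrn1* at 2.20 and *Adgrg1* at 0.99 in the left panel.

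Without the transgene, the *Kdm6b* deletion left no gene of the 10 called in Kdm6bΔ/+ against WT by edgeR's quasi-likelihood test, where 0.0948% of all genes tested were called. None of the 10 had an unadjusted p-value under 0.05, as 3.49% of all genes did, and DESeq2 also called 0. *Nynrin* had normalized counts of 274, 300.4, and 303 in Kdm6bΔ/+ mice, each below all WT mice, a separation found for 1 of the 10 genes and for 4.8% of all genes toward lower values. Its log2 fold change was −0.26 (95% interval −0.57 to 0.05). The other estimates ran from −0.41 for *Zbtb46* (95% interval −1.06 to 0.24) to 0.31 for *Smim24* (−0.16 to 0.78).

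Against WT, the double mutant also had 0 of the 10 genes called by edgeR's quasi-likelihood test and by DESeq2, with 0.215% of all genes called by edgeR, and 2 genes with an unadjusted p-value under 0.05, as for 6.79% of all genes. *Laptm4b* was higher in each double mutant mouse than in each WT mouse, with a log2 fold change of 0.38 (SE 0.17, adjusted p = 0.726 by edgeR's quasi-likelihood F test, Benjamini-Hochberg adjusted). *Dnmt3b* was lower in each of them, with a log2 fold change of −0.31 (SE 0.12, adjusted p = 0.659 in the same edgeR test, Benjamini-Hochberg adjusted). *Socs2* had 13.3, 19.0, and 15.5 normalized counts in the double mutant and 23.8, 28.4, and 35.3 in WT, again without overlap, at a log2 fold change of −0.86 (95% interval −1.80 to 0.08). Such a separation was found for 1 gene toward higher and 2 genes toward lower values, beside 6.68% and 6.87% of all genes. *Nynrin* overlapped WT, with a log2 fold change of 0.08 (95% interval −0.25 to 0.42).

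With the *Kdm6b* deletion on both sides, in Asxl1Y588XTg Kdm6bΔ/+ against Kdm6bΔ/+, again 0 of the 10 genes were called by edgeR's quasi-likelihood test and by DESeq2, with 0.0948% of all genes called by edgeR and 12.2% of all genes at an unadjusted p-value under 0.05. Of the 10 genes, 3 were under that value: *Nynrin* at a log2 fold change of 0.33 (95% interval 0.05 to 0.62), *Dpysl3* at 1.88 (0.04 to 3.72), and *Dnmt3b* at −0.25 (−0.48 to −0.02). *Dpysl3* had only 1, 2, and 9 raw reads in Kdm6bΔ/+ and 10, 7, and 34 in the double mutant, where mouse 3 stood apart, and the groups overlapped. *Nynrin* and *Laptm4b* were higher and *Dnmt3b* was lower in every double mutant mouse, beside 9.32% and 9.57% of all genes toward higher and lower values.

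Whether the effect of the *Kdm6b* deletion differed with and without the transgene was tested by the interaction over all 12 libraries. None of the 10 genes was called by edgeR's quasi-likelihood test, with 0.0126% of all genes called, or by DESeq2, and 1 gene had an unadjusted p-value under 0.05, as did 6.87% of all genes. This gene was *Smim24*, with an interaction of −0.70 on the log2 scale (SE 0.24, 95% interval −1.21 to −0.20, adjusted p = 0.538 by edgeR's quasi-likelihood F test, Benjamini-Hochberg adjusted). It had 147, 203, and 199 normalized counts in Kdm6bΔ/+ mice, so the estimates of the deletion were 0.31 without and −0.37 with the transgene. The interaction of *Nynrin* was −0.36 (95% interval −0.74 to 0.02, adjusted p = 0.741 in the same edgeR test, Benjamini-Hochberg adjusted). A different response of *Nynrin* to the deletion in the 2 backgrounds is therefore not shown, although it was called in only 1 of them.

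Of the further genes of the human score, 5 have a mouse gene of the same name. *Mmrn1*, which encodes a protein of platelets and endothelium, and *Adgrg1*, an adhesion G protein-coupled receptor of stem cells also known as *Gpr56*, were upregulated in Asxl1Y588XTg against WT. *Mmrn1* had 403, 327, and 507 normalized counts in WT and 2173, 2319.7, and 1215 in Asxl1Y588XTg mice, a log2 fold change of 2.20 (SE 0.28, adjusted p = 0.0145 by edgeR's quasi-likelihood F test, Benjamini-Hochberg adjusted). *Adgrg1* had 4576, 4106, and 4619 in WT and 9262, 10186, and 7049.8 in Asxl1Y588XTg mice, a log2 fold change of 0.99 (SE 0.12, adjusted p = 0.00501 in the same edgeR test, Benjamini-Hochberg adjusted). The *Adgrg1* call was kept with each library left out in turn, whereas that of *Mmrn1* was lost without WT mouse 1 or 2, with adjusted p-values up to 0.120 from that edgeR test, and at an adjusted p = 0.0698 (edgeR) without an expression filter. *Cd34*, the surface antigen of human progenitors, and *Bex3* had log2 fold changes of 0.01 (95% interval −0.17 to 0.18) and 0.13 (−0.33 to 0.60). *Arhgap22* had at most 9.05 normalized counts in any mouse and did not pass the expression filter.

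In Asxl1Y588XTg Kdm6bΔ/+ mice *Mmrn1* had 808, 509.9, and 765 and *Adgrg1* 4829, 3769, and 5725 normalized counts, below all Asxl1Y588XTg mice. Against Asxl1Y588XTg their log2 fold changes were −1.43 (SE 0.33, adjusted p = 0.146) and −0.87 (SE 0.20, adjusted p = 0.106), neither past the threshold in edgeR's quasi-likelihood F test, Benjamini-Hochberg adjusted. Both genes were called here by DESeq2, and by edgeR when the 4 genotypes were fitted together, and *Adgrg1* also without an expression filter and with the term for Y-linked transcripts. All 4 further genes tested lay entirely lower in the double mutant than in Asxl1Y588XTg, beside 14.1% of all genes tested, and 0 of them were called.

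Across the 12 libraries the gene most like *Nynrin*, out of 9892 tested genes with a mean of at least 100 normalized counts, was *Adgrg1*, with a Pearson r of 0.98 of log2 CPM, followed by *Pear1*, a platelet endothelial receptor, at 0.97. These values describe the likeness of the patterns only: the 12 points share 4 genotypes, and the Asxl1Y588XTg mice stand apart on both axes. Within the double mutant, mouse 2 had the lowest and mouse 3 the highest value of both *Nynrin* and *Adgrg1*. For the 2 other genes compared in this way, the highest r was 0.88 for *Cdk6* with *Ankrd28* and 0.89 for *Dnmt3b* with *Kpnb1*.

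**Figure D4:**
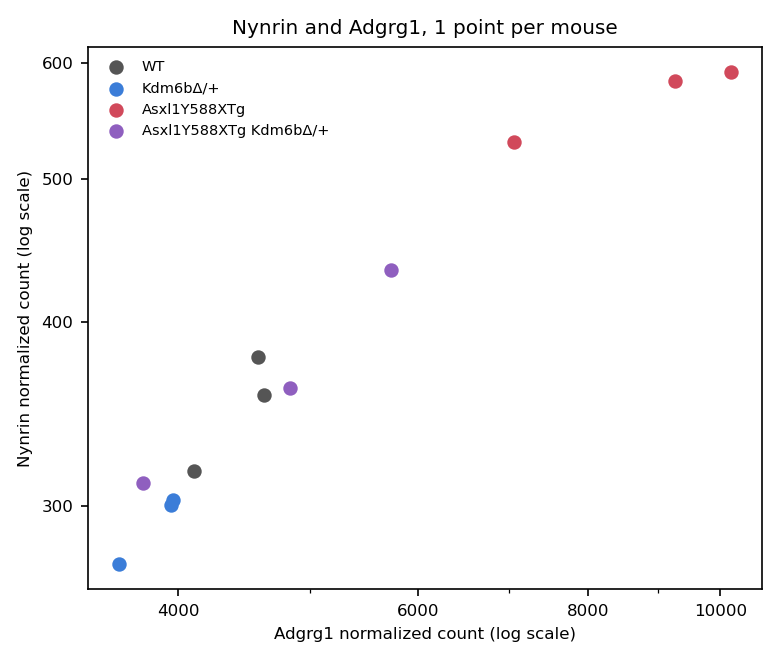
Normalized counts of *Nynrin* against *Adgrg1* on log axes, with 1 point per mouse colored by genotype. The 3 Asxl1Y588XTg mice sit at the upper right, from 529.7 to 592 for *Nynrin* and from 7049.8 to 10186 for *Adgrg1*, above the 9 other mice on both axes.

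Genes of hematopoietic stem cells (HSCs) changed in the same comparisons. Of a list of 16 HSC genes, 13 were called higher in Asxl1Y588XTg against WT and 9 were called lower in Asxl1Y588XTg Kdm6bΔ/+ against Asxl1Y588XTg, beside 1.58% and 1.59% of all genes tested, with median log2 fold changes of 1.78 and −1.18. This list was chosen with earlier results of these data known. The study had already named *Meis1*, *Prdm16*, *Gata2*, and *Hoxb5* on it among the genes dysregulated in Asxl1Y588XTg cells. These counts are therefore not independent evidence. The summed level of the 16 genes was between 196 and 322 CPM in WT, 193 and 264 in Kdm6bΔ/+, 536 and 814 in Asxl1Y588XTg, and 249.8 and 356 in Asxl1Y588XTg Kdm6bΔ/+ mice. The 6 megakaryocyte markers summed to between 138 and 171 CPM in WT, 127 and 152 in Kdm6bΔ/+, 225 and 532 in Asxl1Y588XTg, and 190.4 and 242 in the double mutant. Of these 6, 0 were called and 4 were separated higher in Asxl1Y588XTg against WT, beside 1.58% and 10.5% of all genes. In Asxl1Y588XTg mice *Pf4* had 436, 556, and 1786 normalized counts from lowest to highest. In the double mutant, 0 were called and 1 was separated lower against Asxl1Y588XTg, beside 14.1% of all genes separated lower. *Ppbp* was called higher there against WT, and *Itga2b* against Kdm6bΔ/+, beside 0.215% and 0.0948% of all genes called. None of these markers was at 0 in all mice of a genotype. In bulk samples, more cells of a type and more RNA per cell cannot be told apart, and the part of cell composition in the change of *Nynrin* was not tested. The summed levels of B cell markers overlapped between all genotypes, from 40.7 to 142 CPM, as did those of monocytes and macrophages, from 951 to 1226 CPM, and of T and NK cells, from 174 to 265 CPM. The T and NK cell sum was mostly *Nkg7*, at 2963 to 4564 normalized counts, and does not show the other markers. Of the 7 T and NK cell markers, 0 were called in Asxl1Y588XTg Kdm6bΔ/+ against Asxl1Y588XTg by edgeR's quasi-likelihood test. However, 3 (*Trac*, *Klrb1c*, and *Gzmb*) were lower in every double mutant mouse, beside 14.1% of all genes tested. The same 3 had an unadjusted p-value under 0.05 in that edgeR test toward lower values, beside 9.81% of all genes. *Trac* rested on few reads, with 4 to 7 raw reads in double mutant and 11 to 35 in Asxl1Y588XTg mice. The median log2 fold change of the list was −1.26, beside −0.0043 for all genes tested. The part of such cells in the change of *Nynrin* was not tested. Mast cell and basophil markers summed to between 218 and 257 CPM in Asxl1Y588XTg mice and between 143 and 212 in the double mutant, without overlap, and to between 179 and 244 in WT and 144 and 177 in Kdm6bΔ/+ mice. Of these 6 markers only *Gata2*, which is also on the HSC and LK lists, was separated between Asxl1Y588XTg and the double mutant, at 1536 to 1669.6 and 616 to 869.6 normalized counts, and the other 5 overlapped. Erythroid markers summed to between 244 and 292 CPM in the double mutant and between 397 and 532 in WT, with 220.2 to 486 in Kdm6bΔ/+ and 275 to 639.9 in Asxl1Y588XTg mice, so that only the sums of the double mutant and WT did not overlap. Of the 8 markers, 3 (*Hba-a2*, *Hbb-bt*, and *Alas2*) were called lower and 0 higher by edgeR in the double mutant against WT, beside 0.215% of all genes called. In Kdm6bΔ/+ against WT *Hba-a2* was called lower, beside 0.0948% of all genes called. There 2 of the 8 (*Hba-a2* and *Alas2*) were lower in every Kdm6bΔ/+ mouse, beside 4.8% of all genes. The 8 markers of stroma and endothelium summed to between 103 and 119 CPM in WT, 97.5 and 173 in Kdm6bΔ/+, 126 and 146 in Asxl1Y588XTg, and 131 and 219.9 in the double mutant. WT lay below all mice that carried the transgene in this sum, to which *Pecam1* added most, at a mean of 971 normalized counts. Against WT, 0 of the 8 were called in Asxl1Y588XTg mice and 0 in the double mutant, beside 1.58% of all genes called higher and 0.215% called in either direction. In each of these comparisons 3 were separated higher, beside 10.5% and 6.68% of all genes.

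Relatives of the 10 genes were examined as a list of 22 paralogs, of which 18 were tested. In Asxl1Y588XTg against WT 2 of them were called higher and 0 lower, and in Asxl1Y588XTg Kdm6bΔ/+ against Asxl1Y588XTg 1 was called lower and 0 higher, beside 1.58% of all genes tested called higher and 1.59% called lower, with median log2 fold changes of 0.02 and −0.07. *Socs3*, a feedback inhibitor of cytokine signaling through STAT3, was the called relative in both. It had 353, 228, and 271 normalized counts in WT, 269, 155, and 215 in Kdm6bΔ/+, 1036, 732, and 757 in Asxl1Y588XTg, and 269, 216, and 273 in Asxl1Y588XTg Kdm6bΔ/+ mice. The Asxl1Y588XTg mice stood above all 9 others. The log2 fold changes were 1.56 (SE 0.19, adjusted p = 0.00489) and −1.72 (SE 0.16, adjusted p = 0.00248) by edgeR's quasi-likelihood F test, Benjamini-Hochberg adjusted, and both calls were kept under each alternative fit and with each library left out. *Socs2* itself, with means of 29.2 ± 5.79 in WT and 21.5 ± 8.40 in Asxl1Y588XTg mice (SD, n = 3), was not called in either comparison.

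*Emp2*, a relative of *Emp1*, had 0 reads in each WT mouse and 24.1, 21.1, and 24.3 normalized counts in Asxl1Y588XTg mice, at least 7.54-fold higher when WT is set to the limit of 3 reads per library, with an adjusted p = 0.0173 by edgeR's quasi-likelihood F test, Benjamini-Hochberg adjusted. It had 7.54, 7.93, and 3.11 in Kdm6bΔ/+ and 2.95, 11, and 26.8 in the double mutant, so the deletion did not separate the mice with the transgene. The *Emp2* call was lost without WT mouse 3 or any 1 of the Asxl1Y588XTg mice, with adjusted p-values up to 0.0848 from the same edgeR test. *Cish*, another relative of *Socs2*, had a log2 fold change of 0.82 (SE 0.26, adjusted p = 0.242 by the quasi-likelihood F test of edgeR with Benjamini-Hochberg) in Asxl1Y588XTg against WT. The methyltransferase genes *Dnmt3a* and *Dnmt1*, the related kinase gene *Cdk4*, and *Laptm4a* and *Laptm5* were not called in either comparison. *Dnmt3a* and *Laptm4a* were nevertheless separated in both. *Dnmt3a* had 1597 to 1636 normalized counts in WT, 1465 to 1570 in Asxl1Y588XTg, and 1285 to 1426 in double mutant mice. *Laptm4a* had 1379 to 1533, 1571 to 1866, and 1338 to 1561. *Cish* and *Socs5* were separated in both as well. *Cish* had 46.0 to 61.2 normalized counts in WT, 83.5 to 99.6 in Asxl1Y588XTg, and 46.5 to 68.1 in double mutant mice. *Socs5* had 199.9 to 255.6, 260.3 to 299.8, and 193.9 to 204.0. Of the 18 relatives tested, 6 were separated higher and 1 lower in the first comparison, and 0 higher and 6 lower in the second. Among all genes, 5.21% were separated lower and 10.5% higher in the first comparison, and 14.1% lower in the second.

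Genes of the cell cycle step at which *Cdk6* acts were taken as D- and E-type cyclins, inhibitors of the INK4 family, the retinoblastoma proteins, and E2F factors. They formed a list of 14 genes with 12 tested. In Asxl1Y588XTg against WT 1 was called higher and 0 lower, beside 1.58% of all genes called higher. In Asxl1Y588XTg Kdm6bΔ/+ against Asxl1Y588XTg 0 were called by edgeR's quasi-likelihood test, where 2 had an unadjusted p-value under 0.05 toward lower and 1 toward higher values, beside 9.81% and 5.64% of all genes. *Ccnd1* was called there by DESeq2, and by edgeR without an expression filter. *Ccnd1*, encoding cyclin D1, which activates CDK6, had 143, 182, and 215 normalized counts in WT and 413, 355, and 333 in Asxl1Y588XTg mice. The log2 fold change was 1.03 (SE 0.18, adjusted p = 0.0213 by edgeR's quasi-likelihood F test, Benjamini-Hochberg adjusted), and the call was lost without any 1 of the Asxl1Y588XTg mice, with adjusted p-values up to 0.101 from that edgeR test. In the double mutant the counts were 283, 170.0, and 258, at a log2 fold change of −0.61 against Asxl1Y588XTg (SE 0.18, adjusted p = 0.141, same edgeR test, Benjamini-Hochberg adjusted). *Ccnd2* had a log2 fold change of 0.26 (SE 0.07, adjusted p = 0.132, same edgeR test) in Asxl1Y588XTg against WT.

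Cytokine receptors, JAK kinases, STAT factors, and their targets, the pathway that *Socs2* restrains, formed a list of 16 genes, all tested. *Pim1*, a kinase gene induced by STAT5, was the 1 gene of the list called in Asxl1Y588XTg Kdm6bΔ/+ against Asxl1Y588XTg, where 1.59% of all genes were called lower. It had 2390.2, 1621, and 2158 normalized counts in Asxl1Y588XTg and 1072, 1253, and 1219 in the double mutant, a log2 fold change of −0.79 (SE 0.15, adjusted p = 0.0497 by edgeR's quasi-likelihood F test, Benjamini-Hochberg adjusted). That call was lost in 4 of 6 fits with 1 library left out, those without Asxl1Y588XTg mouse 3 or any 1 double mutant mouse, with adjusted p-values up to 0.173 (edgeR). It was also lost with a minimum mean count of 50 and with the term for Y-linked transcripts. *Jak3* had an adjusted p = 0.0306 in this comparison by edgeR's quasi-likelihood F test (Benjamini-Hochberg) but a fold change under 1.5, at a log2 fold change of −0.58 (SE 0.11).

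**Figure D5:**
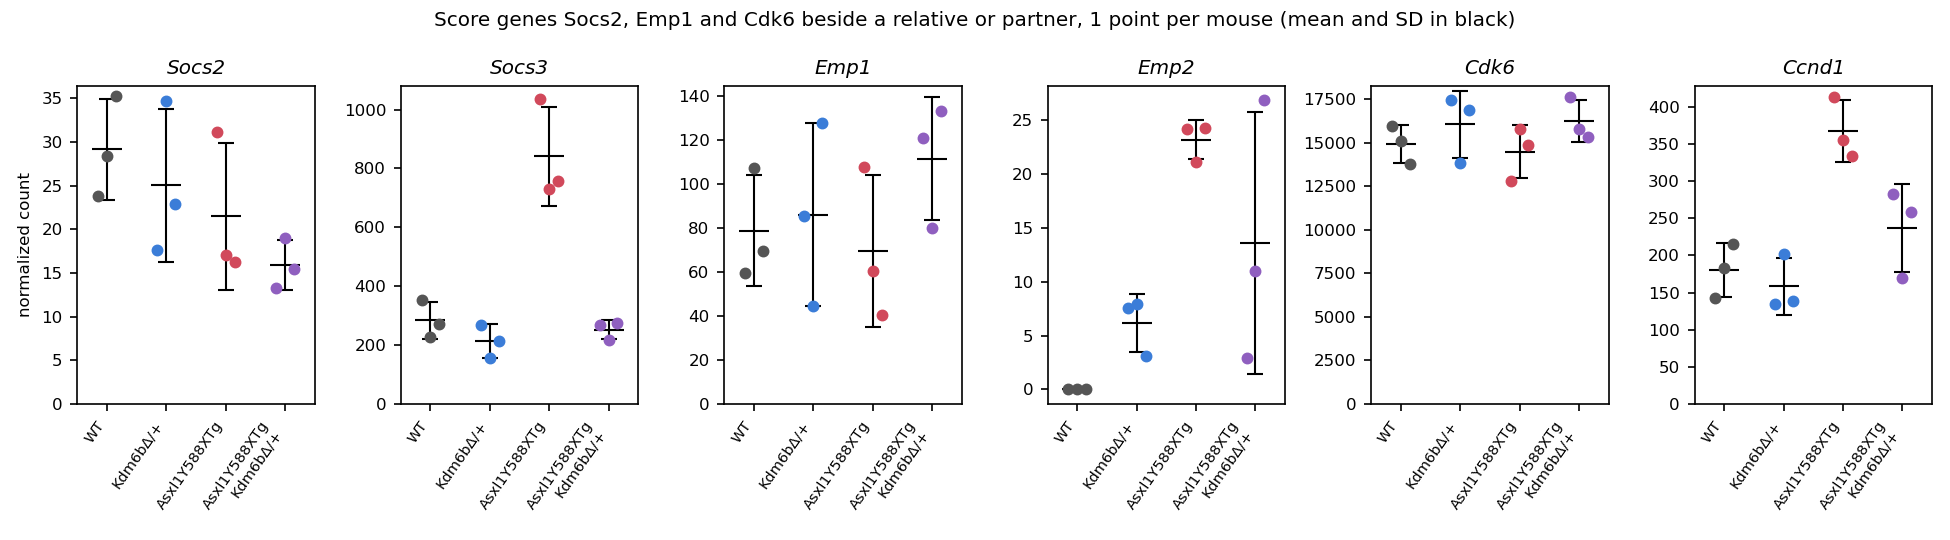
Normalized counts of *Socs2*, *Emp1*, and *Cdk6* beside the relatives *Socs3* and *Emp2* and the partner *Ccnd1*, with 1 point per mouse, 3 mice per genotype, and the mean and SD in black. *Socs3* was between 732 and 1036 in Asxl1Y588XTg mice and at most 353 in all others, while *Socs2* overlaps between WT and Asxl1Y588XTg mice.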

How the data were processed

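RNA-Seq of LK cells covered 3 mice for each of 4 genotypes, with groups taken from the sample labels. The authors trimmed the reads with Trimmomatic, aligned them to mm10 with STAR, and deposited, without normalization, the raw counts of 55291 genes that HTSeq gave. The annotation and strand setting of the counting are not given in the sources used here. The methods and the sample labels name different library kits and sequencers.

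Fits used edgeR 4.0.16 in R 4.3.3, with limma 3.58.1 for its base functions. The filterByExpr function kept 15825 genes, and TMM scaled the libraries. A normalized count is a count scaled by its library's TMM effective size to the mean library, and RPKM and CPM use the same effective sizes. Each pair of genotypes was compared by edgeR's robust quasi-likelihood test on its 6 libraries and the interaction on all 12, adjusted by Benjamini-Hochberg over all genes tested. Called genes had an adjusted p below 0.05 and differed more than 1.5-fold. Levels per length used the exons of GENCODE vM21 on mm10, as did positions. Floors of 3 reads and all intervals cover counting error or the spread between these mice only. The rule for the 10 score genes uses their symbols only. However, these genes and the lists of markers, relatives, and pathway genes were chosen with earlier results of these data known. They are therefore not independent evidence. Named genes were picked from the 10 genes, the further score genes, *Kdm6b*, called members of the lists with at most 3 others of smallest p-value, and the 2 genes most like each called or abundant score gene. Not every called member of the HSC list is named in the text. *Dnmt1*, *Cdk4*, *Laptm4a*, *Laptm5*, and *Dnmt3a* were named after their values were seen, to complete the families. The result of 1 gene is not reported here. The steps were tested on simulated data. Alternatives were DESeq2 1.42.0, all 4 genotypes in 1 fit, RLE scaling, no filter, a minimum mean count of 50, a block for the replicate number, a term for Y-linked transcripts in 1 fit of all 4 genotypes, and each library left out.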

Additional observations from a re-analysis of the deposited data

How the results depend on the processing

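Over all alternatives and comparisons, 761 of 812 values of single score genes kept their direction and their side of the threshold, 12 lost the threshold, 1 gained it, and 38 changed sign. The number of score genes called in Asxl1Y588XTg against WT was 1, against 2 without an expression filter, 0 with the replicate block, and 0 to 1 with 1 library left out. In Asxl1Y588XTg Kdm6bΔ/+ against Asxl1Y588XTg it was 1, against 0 with the replicate block, 0 with the term for Y-linked transcripts, and 0 to 1 with 1 library left out. In the other comparisons it was 0 under each alternative. Both *Nynrin* calls were kept by DESeq2, and by edgeR when the 4 genotypes were fitted together.

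Replicate numbers did not pair the libraries: deviations from genotype means had a median r of −0.04 over 18 same-numbered pairs and 0.01 over 36 others, and 0 libraries were most like 1 of their own number. With the replicate block, edgeR's quasi-likelihood F test (Benjamini-Hochberg) gave *Nynrin* an adjusted p of 0.0720 and 0.109. In Asxl1Y588XTg against WT the calls of *Mmrn1* (adjusted p = 0.135), *Emp2* (0.131), and *Ccnd1* (0.0853) were also lost with the block in this edgeR test. That of *Pim1* in Asxl1Y588XTg Kdm6bΔ/+ against Asxl1Y588XTg was lost with the block, with a minimum mean count of 50, and with the term for Y-linked transcripts, at adjusted p-values up to 0.129 (edgeR).

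Signs changed as follows. With the term for Y-linked transcripts, which was estimated over all 4 genotypes, log2 fold changes in Kdm6bΔ/+ against WT became 0.092 for *Dpysl3*, −0.0695 for *Cdk6*, 0.16 for *Socs2*, −0.24 for *Emp1*, and −0.034 for *Cpxm1*. In Asxl1Y588XTg Kdm6bΔ/+ against WT they became −0.13 for *Cdk6* and 0.27 for *Zbtb46*, and against Kdm6bΔ/+ −0.0595 for *Cdk6*. The cause was not tested. With 1 library left out, values in Asxl1Y588XTg against WT ran from −0.17 to 0.0452 for *Dnmt3b*, −0.11 to 0.036 for *Cdk6*, and −0.64 to 0.11 for *Emp1*. In Asxl1Y588XTg Kdm6bΔ/+ against Asxl1Y588XTg they ran from −0.0777 to 0.0393 for *Laptm4b*, −0.41 to 1.67 for *Dpysl3*, and −0.0335 to 0.28 for *Zbtb46*. In Kdm6bΔ/+ against WT they ran from −0.0161 to 0.19 for *Laptm4b*, −1.46 to 1.10 for *Dpysl3*, −0.27 to 0.44 for *Emp1*, and −0.18 to 0.69 for *Cpxm1*. In Asxl1Y588XTg Kdm6bΔ/+ against WT they ran from −0.0505 to 0.19 for *Nynrin* and −0.34 to 0.0072 for *Zbtb46*, and against Kdm6bΔ/+ from −0.0781 to 0.0856 for *Cdk6* and −0.0041 to 0.60 for *Zbtb46*. The interaction ran from −0.36 to 2.22 for *Dpysl3*, −0.0343 to 0.13 for *Cdk6*, and −0.42 to 0.14 for *Socs2*. Over all genes, the count called higher in Asxl1Y588XTg against WT was 250 and ran from 96 to 591 over the alternatives, and the count called lower in Asxl1Y588XTg Kdm6bΔ/+ against Asxl1Y588XTg was 252 and ran from 43 to 667. *Cpxm1*, *Dpysl3*, and *Socs2* could not be fitted with the filter on a mean count of at least 50, which removes them. *Dpysl3*, *Socs2*, *Cpxm1*, and *Emp1* had the fewest reads, and what depth adds to the width of their intervals was not tested.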
